A study of Oryza sativa with 18 samples.

Results

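ACS2 (LOC4336750) encodes an enzyme that makes the precursor of the plant hormone ethylene, and EIL1 (LOC4332697) encodes a transcription factor of the ethylene response. They were 2 of the 17905 rice genes with a probe set of their own in the platform's gene table, and were described over 6 groups of line and time. Both were chosen by their log2 signals in NIL-Bph6-RNAi, which had been seen to be higher at 6 h than at 0 h. That difference is therefore given as a description, as is every other difference that used the NIL-Bph6-RNAi arrays of 0 h or 6 h. Differences without those arrays were tested.

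The study measured RNA of rice leaf sheath on 18 Affymetrix arrays, with 3 arrays labelled as biological replicates in each group. NIL-Bph6 is a near-isogenic line that carries Bph6, a gene for resistance to the brown planthopper, a phloem-feeding insect, and the labels call it resistant. NIL-Bph6-RNAi, by its name that line with an RNAi construct, is called susceptible, and the number of transformants behind it is not given in these sources. The groups were NIL-Bph6 at 0 h, without insects, and after 6 h and 48 h of infestation, and NIL-Bph6-RNAi at the same 3 times, all from chamber-grown plants of 3 weeks. Uninfested plants of 6 h and 48 h were not analysed here, so a change from 0 h also holds whatever else differed between the times. The RNA came from whole sheath, in which fewer cells of a type and less RNA per cell cannot be told apart.

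Ethylene is made from S-adenosylmethionine by ACC synthases such as ACS2, whose product ACC is turned into ethylene by ACC oxidases. The ACC synthase step is usually the limiting one. Ethylene binds receptors in the endoplasmic reticulum membrane, which frees EIN2 to signal, and EIN2 stabilises the EIL factors, the rice relatives of Arabidopsis EIN3, which bind promoters of ethylene-responsive genes. In rice, ethylene and jasmonate signalling are both known to take part in the response to feeding insects.

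The name EIL1 does not point to 1 gene. The RefSeq gene table gives it as a synonym of LOC4332697, also called EIL1B, and of the next gene along the chromosome, LOC107276358, also called EIL1A and MHZ6. EIL1 stands here for LOC4332697, and EIL1A for its neighbour. ACS2 had 1 probe set. EIL1 had 1 of its own and 3 more that the platform table gives to EIL1, EIL1A and LOC4347171 together. The latter name no single gene and are described apart from it. All 5 probe sets were kept by the filter on dim signals.

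Titles, source names and the series' design text gave the lines and times used, whereas the description fields name other lines and times. Of 64 probe sets for reporter and marker sequences, 1 was higher on all 9 NIL-Bph6-RNAi arrays, at 11.85 to 13.15 log2 signal against 0.97 to 5.44, and 0 were lower on all 9. Over the probe sets kept, the closest array by correlation came from the same group for 17 of 18 arrays, and over all non-control probe sets for 13. Leaf genes were bright on every array: the chlorophyll-binding gene CAB2R lay between 14.78 and 15.29, PORB between 11.28 and 12.52 and GLO1 between 12.19 and 13.13. Among the markers of other tissues, the root silicon transporter LSI2 reached at most 3.52, LSI1 lay between 7.14 and 8.41, and the seed storage gene GLUA2 lay between 8.52 and 9.62. The other endosperm markers GLUA1, RP6 and RAG2 and the anther marker RTS lay between 0.06 and 6.95. The probe set for the gene that the RNAi construct targets was not analysed here.

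ACS2 was lowest in NIL-Bph6-RNAi before infestation, and its means elsewhere ran from 8.07 to 8.47. In NIL-Bph6 its log2 signals were 8.24, 8.17 and 8.13 at 0 h, 8.39, 7.37 and 8.67 at 6 h, and 7.89, 9.06 and 7.72 at 48 h. In NIL-Bph6-RNAi they were 6.14, 6.17 and 7.41 at 0 h, 8.12, 7.74 and 8.34 at 6 h, and 8.74, 8.12 and 8.56 at 48 h. The 3 arrays of NIL-Bph6-RNAi at 0 h thus held the 2 lowest and the fourth lowest of the 18 values. The highest of them, 7.41, lay just above the lowest value of the other 15 arrays, 7.37, whose median was 8.17. Group means in NIL-Bph6 were 8.18 ± 0.06, 8.14 ± 0.69 and 8.22 ± 0.73 (SD, n = 3) at 0 h, 6 h and 48 h, so the arrays lay close together before infestation and apart after it. In NIL-Bph6-RNAi the means were 6.58 ± 0.72, 8.07 ± 0.30 and 8.47 ± 0.32 (SD, n = 3).

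EIL1 showed the same low group. Its log2 signals in NIL-Bph6 were 11.50, 11.18 and 12.27 at 0 h, 12.27, 11.45 and 11.77 at 6 h, and 11.60, 12.12 and 11.30 at 48 h. In NIL-Bph6-RNAi they were 11.22, 10.20 and 10.96 at 0 h, 12.03, 11.60 and 12.36 at 6 h, and 12.10, 12.20 and 12.76 at 48 h. The highest NIL-Bph6-RNAi value at 0 h, 11.22, again only just overlapped the other 15 arrays, which ran from 11.18 to 12.76 with a median of 12.03. Group means were 11.65 ± 0.56, 11.83 ± 0.41 and 11.67 ± 0.42 (SD, n = 3) in NIL-Bph6 and 10.79 ± 0.53, 11.997 ± 0.38 and 12.35 ± 0.36 (SD, n = 3) in NIL-Bph6-RNAi, at 0 h, 6 h and 48 h. Here the NIL-Bph6 arrays were as far apart before infestation as after it.

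**Figure D1:**
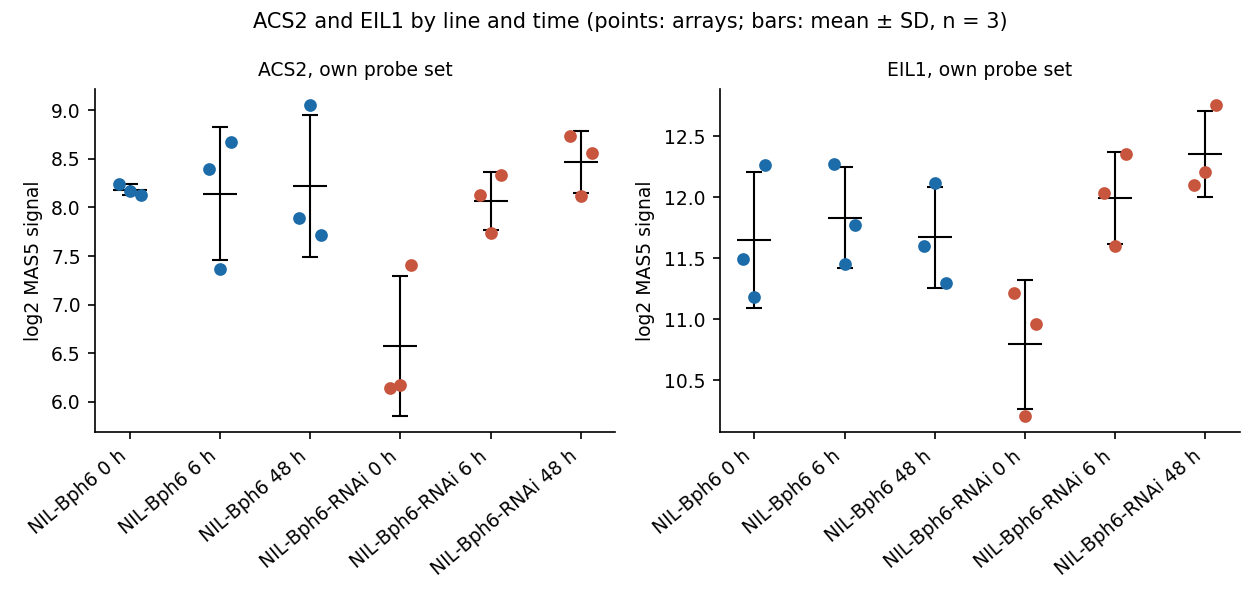
Log2 MAS5 signal of ACS2 (left) and EIL1 (right) by line and time; points are arrays, and bars give the mean ± SD of 3 arrays. In both panels NIL-Bph6-RNAi at 0 h has the lowest mean, 6.58 for ACS2 and 10.79 for EIL1; the means of the other 5 groups run from 8.07 to 8.47 and from 11.65 to 12.35.

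In NIL-Bph6 neither gene passed the test after infestation. ACS2 differed by -0.04 ± 0.39 (SE) on the log2 scale between 6 h and 0 h, with a 95% interval of -0.87 to 0.79 and a limma adjusted p of 0.970. Between 48 h and 0 h the ACS2 difference was 0.04 ± 0.39, with an interval of -0.79 to 0.87 and an adjusted p of 0.965, and between 48 h and 6 h it was 0.08 with an adjusted p of 0.964. For EIL1 the difference at 6 h was 0.18 ± 0.32, with an interval of -0.50 to 0.87 and an adjusted p of 0.796. At 48 h it was 0.02 ± 0.32 against 0 h, with an interval of -0.66 to 0.70 and an adjusted p of 0.977, and -0.16 against 6 h with an adjusted p of 0.896. Of the 32732 probe sets tested, 5.12% were called between 6 h and 0 h in this line, 15.7% between 48 h and 0 h and 0.843% between 48 h and 6 h. The intervals leave room for changes in either direction of a size that was called for other genes. The change of ACS2 from 0 h turned sign without replicate 2 of the later time, to 0.35 at 6 h and -0.38 at 48 h, and stayed outside the threshold. For EIL1 the changes without that replicate were 0.37 at 6 h and -0.20 at 48 h, and without replicate 1 of 6 h the 6 h change was -0.04.

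At 48 h the lines did not differ past the threshold. ACS2 was 0.25 lower in NIL-Bph6 (difference -0.25 ± 0.39, interval -1.08 to 0.58, limma adjusted p = 0.748). EIL1 gave the largest tested difference, at -0.68 ± 0.32, with all of its 3 NIL-Bph6-RNAi arrays at 12.10 or more and 2 of the 3 NIL-Bph6 arrays below that. Its 95% interval, -1.37 to -0.00238, and raw p of 0.0493 lay at the edge, and the adjusted p over all probe sets was 0.183. In this comparison 13.6% of the probe sets were called.

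The remaining differences used the arrays on which both genes were chosen and are given without a test. From 0 h to 6 h in NIL-Bph6-RNAi, ACS2 differed by 1.49 ± 0.39 (SE) in log2 signal, or 2.81-fold, and EIL1 by 1.20 ± 0.32, or 2.3-fold. From 0 h to 48 h the differences were 1.90 (3.72-fold) for ACS2 and 1.56 (2.95-fold) for EIL1, against the same 0 h arrays. In both genes all 3 arrays at 6 h, and all 3 at 48 h, lay above all 3 at 0 h, which was so for 14.9% of the probe sets at 6 h and 23.4% at 48 h. From 6 h to 48 h ACS2 differed by 0.40 and EIL1 by 0.36, each about the size of its standard error.

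Set against NIL-Bph6, the low group showed as a line difference before infestation. At 0 h ACS2 was higher in NIL-Bph6 by 1.61 ± 0.39 (SE), or 3.04-fold, and EIL1 by 0.86 ± 0.32, or 1.81-fold. At 6 h the line differences were 0.07 for ACS2 and -0.16 for EIL1, within their standard errors. The 6 h response of NIL-Bph6 minus that of NIL-Bph6-RNAi was -1.53 ± 0.55 for ACS2 and -1.02 ± 0.46 for EIL1, and for the 48 h response it was -1.85 ± 0.55 and -1.54 ± 0.46. Apart from the line differences at 6 h, these values rest on the 3 arrays of NIL-Bph6-RNAi at 0 h. Leaving out 1 of those arrays moved the line difference at 0 h to between 1.39 and 2.02 for ACS2 and between 0.56 and 1.07 for EIL1. For EIL1 the lowest of these came without replicate 2, whose signal was 10.20.

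**Figure D2:**
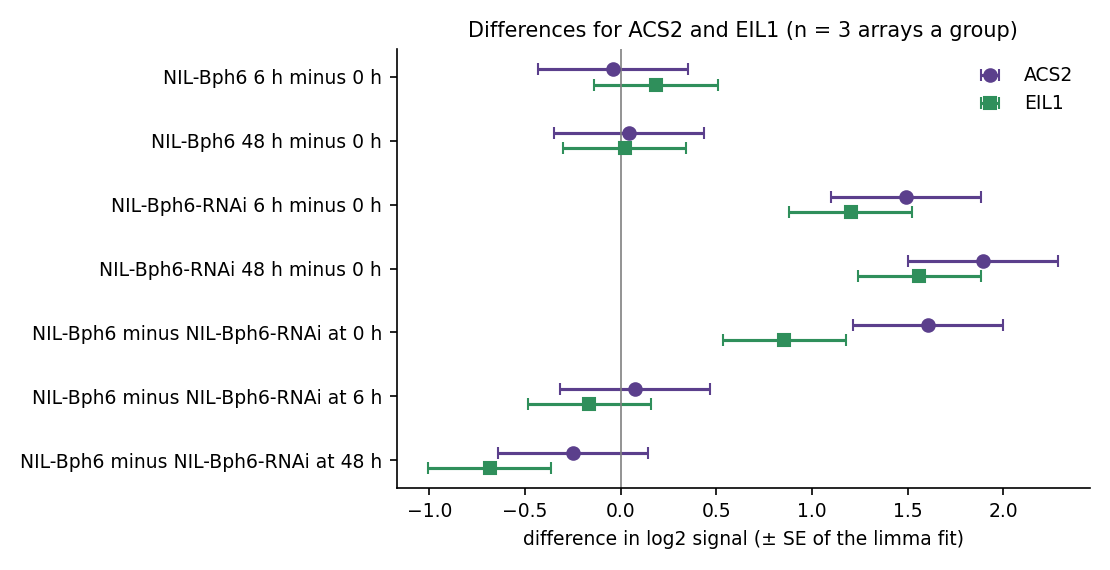
Differences in log2 signal of ACS2 (circles) and EIL1 (squares) between the groups named at the left, with bars of 1 SE from the fit over 18 arrays. The changes from 0 h in NIL-Bph6 lie between -0.04 and 0.18, whereas those against NIL-Bph6-RNAi at 0 h lie between 0.86 and 1.90.

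By group mean, though not array by array, a measure of RNA integrity was also most extreme in the low group. The mean 3' minus 5' difference of 7 rice control gene pairs, which grows as RNA is degraded, was 2.39 ± 0.19 log2 units (SD, n = 3) in NIL-Bph6-RNAi at 0 h, the highest mean of the 6 groups. The means of the other groups ranged from 1.78 ± 0.42 in NIL-Bph6 at 0 h to 2.16 ± 0.32 in NIL-Bph6-RNAi at 6 h. Single arrays overlapped: those of NIL-Bph6-RNAi ran from 2.19 to 2.57 at 0 h and from 1.83 to 2.46 at 6 h. With that measure as a covariate, the difference between 6 h and 0 h in NIL-Bph6-RNAi was 1.42 for ACS2 and 1.21 for EIL1, and the line difference at 0 h was 1.41 and 0.86.

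Ordered by group mean, ACS2 ran from NIL-Bph6-RNAi at 0 h through NIL-Bph6-RNAi at 6 h and NIL-Bph6 at 6 h, 0 h and 48 h to NIL-Bph6-RNAi at 48 h. The first step, 1.49, lies between the groups on which the gene was chosen and is a description. No later step exceeded the larger SD of the groups beside it. For EIL1 the order was NIL-Bph6-RNAi at 0 h, NIL-Bph6 at 0 h, 48 h and 6 h, then NIL-Bph6-RNAi at 6 h and 48 h. The first step, 0.855, starts from arrays on which the gene was chosen, and no later neighbours differed beyond their larger SD.

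ACS2 and EIL1 also varied together from array to array. Over the 18 arrays Pearson's r between them was 0.759 and Spearman's rho 0.688, and without the 3 NIL-Bph6-RNAi arrays of 0 h these were 0.547 and 0.521. After each group's mean was taken away, r was 0.473. These values describe signals from the same arrays, which share RNA and array quality, and carry no test. In NIL-Bph6 at 6 h replicate 2 was the lowest array for both genes, and at 48 h replicate 2 was the highest for both; the replicate number names an array and does not link the groups.

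The probe sets that EIL1 shares with EIL1A and LOC4347171 behaved differently from its own. On the shared probe set with the suffix A1_x_at, singled out after its values were seen, the NIL-Bph6 signals were 4.44, 7.08 and 8.29 at 0 h, 8.51, 7.94 and 7.87 at 6 h, and 8.54, 7.04 and 8.64 at 48 h. On the same probe set NIL-Bph6-RNAi gave 12.62, 12.52 and 12.61 at 0 h, 12.87, 12.68 and 12.99 at 6 h, and 13.41, 13.16 and 13.35 at 48 h. Every NIL-Bph6-RNAi array was thus above every NIL-Bph6 array, by at least 3.89, an arrangement found for 150 of the 32732 probe sets (0.458%). At 48 h the line difference was -5.23 ± 0.64 (SE, limma adjusted p = 0.000152), and over 15 alternatives it lay between -5.51 and -4.72. For EIL1's own probe set the line difference was -0.68 at 48 h, outside the threshold, and 0.86 at 0 h. The letters _x_at mark probes that can also match other sequences, and the probe sequences were not analysed here, so the source of the line difference was not tested.

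The other shared probe sets showed no such gap. The one with the suffix A1_a_at had group means of 13.58, 13.68 and 13.91 in NIL-Bph6 at 0 h, 6 h and 48 h and of 13.72, 14.04 and 14.14 in NIL-Bph6-RNAi. It rose by 0.33 ± 0.10 (SE) from 0 h to 48 h in NIL-Bph6 (limma adjusted p = 0.0360), a call that ended under 9 of 15 alternatives, with adjusted p up to 0.173 without replicate 1 of NIL-Bph6 at 0 h. The one with the suffix S1_x_at had means of 9.35, 9.63 and 9.81 in NIL-Bph6 and 9.68, 9.70 and 10.02 in NIL-Bph6-RNAi. Its rise of 0.46 ± 0.14 from 0 h to 48 h in NIL-Bph6 (limma adjusted p = 0.0271) ended under 6 of 15 alternatives, with adjusted p up to 0.162. Neither differed between lines at 48 h past the threshold, with adjusted p of 0.152 and 0.340.

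EIL1A had 2 probe sets of its own, and they did not run alike. The brighter one was lowest in NIL-Bph6-RNAi at 0 h. Its means were 13.80 ± 0.15, 13.92 ± 0.03 and 14.02 ± 0.06 (SD, n = 3) in NIL-Bph6 at 0 h, 6 h and 48 h. In NIL-Bph6-RNAi they were 13.32 ± 0.11, 13.72 ± 0.05 and 13.99 ± 0.05. The rise in NIL-Bph6-RNAi was 0.67 at 48 h (limma adjusted p = 2.55e-05), a call kept under all 15 alternatives. The rise of 0.40 ± 0.08 at 6 h (adjusted p = 0.0111) ended with median centring, at 0.0764, and without replicate 2 of NIL-Bph6-RNAi at 0 h, at 0.0738. At 0 h EIL1A was higher in NIL-Bph6 by 0.48 (adjusted p = 0.00573), which ended with the compared groups alone (0.134), with the covariate for RNA integrity (0.102) and without that replicate (0.0510). The dimmer EIL1A probe set had means of 6.48, 6.65 and 6.02 in NIL-Bph6 at 0 h, 6 h and 48 h and of 6.46, 6.37 and 6.69 in NIL-Bph6-RNAi, with its lowest in NIL-Bph6 at 48 h. Its difference between 6 h and 0 h in NIL-Bph6-RNAi was -0.09 ± 0.24 (SE), and the line difference at 0 h was 0.03. LOC4347171, a gene with no other name in the table, did not share the pattern, with group means between 9.18 and 9.65 on its own probe set and its highest in NIL-Bph6-RNAi at 0 h.

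**Figure D3:**
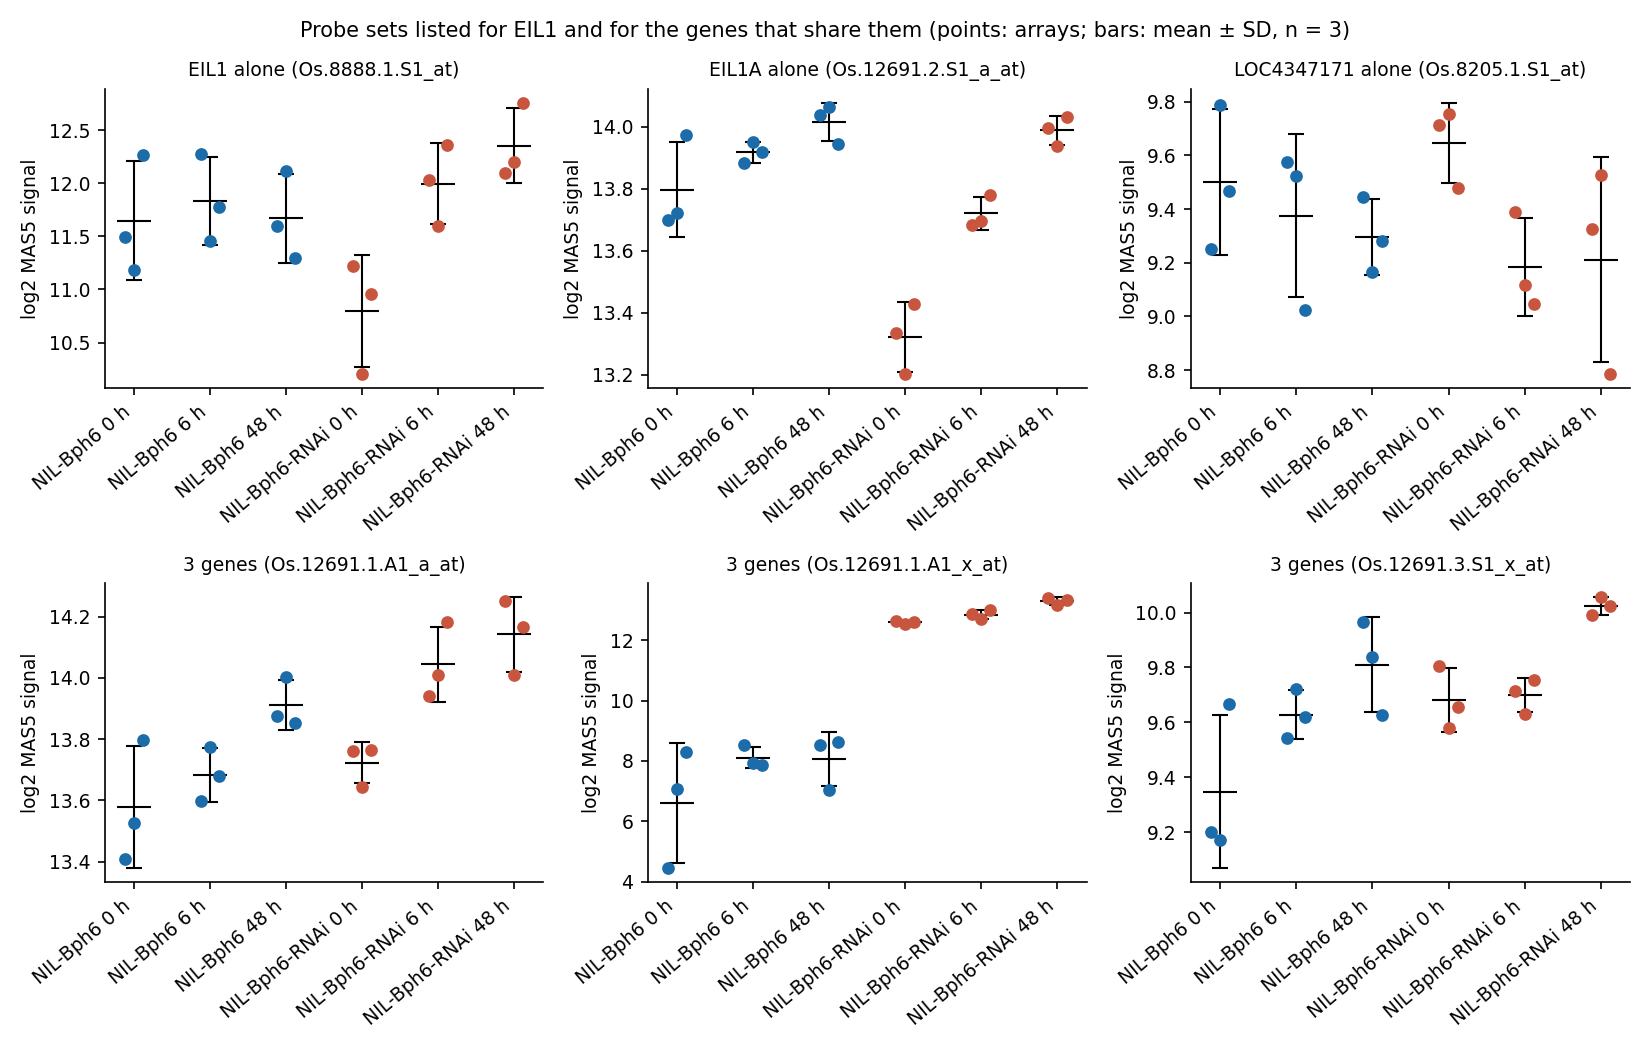
Log2 MAS5 signal by line and time of the probe sets listed for EIL1, EIL1A and LOC4347171; points are arrays, bars the mean ± SD of 3 arrays, and each panel has its own scale. The EIL1 probe set and the brighter of 2 for EIL1A, the one drawn, have their lowest mean in NIL-Bph6-RNAi at 0 h, whereas the shared A1_x_at probe set separates all arrays of the lines, at 4.44 to 8.64 against 12.52 to 13.41.

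Other genes of the ethylene pathway were read from a list of synthesis, methionine salvage, receptor, response factor and reported target genes. Of 36 listed genes in the gene table, 31 had a probe set of their own and 27 passed the filter, which leaves 25 beside ACS2 and EIL1. In NIL-Bph6, 1 of the 25 rose and 1 fell at 6 h, where 5.12% of all probe sets were called, with a median change of -0.01 against -0.03 over all probe sets. At 48 h, 1 rose and 2 fell in that line, where 15.7% of all probe sets were called, with a median of 0.01 against 0.004. Between 48 h and 6 h, limma called 0 of the 25 in this line, and 2 had an unadjusted p under 0.05. In NIL-Bph6-RNAi, 6 rose and 0 fell at 6 h, where 3.7% of all probe sets rose and 5.3% were called in either direction. The median was 0.14 against 0.02 over all. At 48 h, 11 rose and 1 fell, where 16.7% of all probe sets rose and 33.3% were called, and the median was 0.27 against 0.007. Both changes use the same 0 h arrays, and that ethylene genes were higher at 6 h in this line was known when the list was made. The p-values of single list genes that use the NIL-Bph6-RNAi arrays of 0 h or 6 h, above and below, carry that limit.

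In synthesis, none of the 3 tested genes was called in NIL-Bph6-RNAi at 6 h or 48 h. The S-adenosylmethionine synthase genes SAMS2 and SAM1 differed by -0.06 and 0.01 at 6 h and by 0.06 and 0.10 at 48 h, with limma adjusted p of 0.875, 0.970, 0.798 and 0.450. ACO1, an ACC oxidase gene for the step after ACS2, differed between the lines at 48 h and was higher in NIL-Bph6, at 12.90 ± 0.42 against 12.01 ± 0.39 (SD, n = 3), where ACS2 differed by -0.25. The ACO1 difference was 0.89 ± 0.23 (SE, limma adjusted p = 0.0186). It ended with the compared groups alone (0.0694) and without replicate 2 or 3 of NIL-Bph6 (0.0596 and 0.0923) or replicate 3 of NIL-Bph6-RNAi (0.0974). ACO1 was 1 of 25 genes called between the lines at 48 h, where 13.6% of all probe sets were called.

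The methionine salvage genes regenerate methionine from the by-product of ACC synthase. MTK1, which encodes methylthioribose kinase of that cycle, was lowest in NIL-Bph6-RNAi at 0 h, at 11.94 ± 0.09, and reached 12.51 ± 0.24 at 6 h and 12.59 ± 0.12 at 48 h (SD, n = 3). It rose by 0.57 ± 0.13 at 6 h (SE, limma adjusted p = 0.0170) and by 0.65 at 48 h (0.00103), the latter under all 15 alternatives. The 6 h call ended without replicate 2 (0.0856) or 3 (0.0588) at 0 h or replicate 3 at 6 h (0.0772). ARD4, an acireductone dioxygenase gene, fell in NIL-Bph6, from 11.45 ± 0.13 at 0 h to 10.89 ± 0.14 at 6 h and 10.65 ± 0.14 at 48 h. The fall at 48 h, -0.80 with an adjusted p of 0.00171, was kept under all 15 alternatives, and that of -0.56 at 6 h (0.0396) ended under 8 of them, with adjusted p up to 0.129. In NIL-Bph6-RNAi ARD4 differed by -0.23 at 48 h (adjusted p = 0.266), and the difference of the 48 h responses was not called (-0.57 ± 0.21, adjusted p = 0.0933). ARD2 fell by 0.44 at 48 h in NIL-Bph6 (adjusted p = 0.0189, up to 0.0838 over the alternatives), and ARD1 rose by 1.07 at 48 h in NIL-Bph6-RNAi (0.0102, up to 0.0527). In the gene table both of the latter also carry names of heat shock factors.

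Of the receptor genes, ETR2 rose in NIL-Bph6-RNAi by 0.49 ± 0.12 at 6 h (SE, limma adjusted p = 0.0279) and by 0.41 at 48 h (0.0155), and ERS1 rose by 0.27 at 48 h (0.0219). These calls ended under 9, 4 and 9 of 15 alternatives, with adjusted p up to 0.113, 0.0733 and 0.101. The receptor genes ERS2 and ETR3 were not called in that line. At 0 h, 6 h and 48 h their means were 9.07, 9.29 and 8.88 for ERS2 and 9.90, 9.75 and 9.84 for ETR3. In NIL-Bph6, ETR2 differed by 0.28 at 6 h and 0.33 at 48 h (adjusted p = 0.200 and 0.0761), and its 48 h responses differed between the lines by -0.08 ± 0.17 (0.819). EIN2, the relay between the receptors and the EIL factors, differed by -0.11 at 6 h and -0.16 at 48 h in NIL-Bph6-RNAi, with adjusted p of 0.740 and 0.467. Of the genes listed as response factors, EREBP1 rose by 0.32 at 6 h and 0.28 at 48 h in NIL-Bph6 and by 0.30 at 48 h in NIL-Bph6-RNAi (adjusted p = 0.0497, 0.0454 and 0.0169), ending under 11, 11 and 3 of 15 alternatives, with adjusted p up to 0.362, 0.251 and 0.109, all with median centring. SK1 and SK2 were listed by synonyms that may belong to genes other than response factors, and their role is unsure. SK2 rose by 0.85 at 48 h in NIL-Bph6-RNAi (0.0101, and 0.0549 without replicate 1 at 48 h) and is counted among the list genes that rose. Its means at 0 h and 48 h were 8.04 and 8.89 in NIL-Bph6-RNAi and 8.34 and 8.86 in NIL-Bph6, where it was not called.

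**Figure D4:**
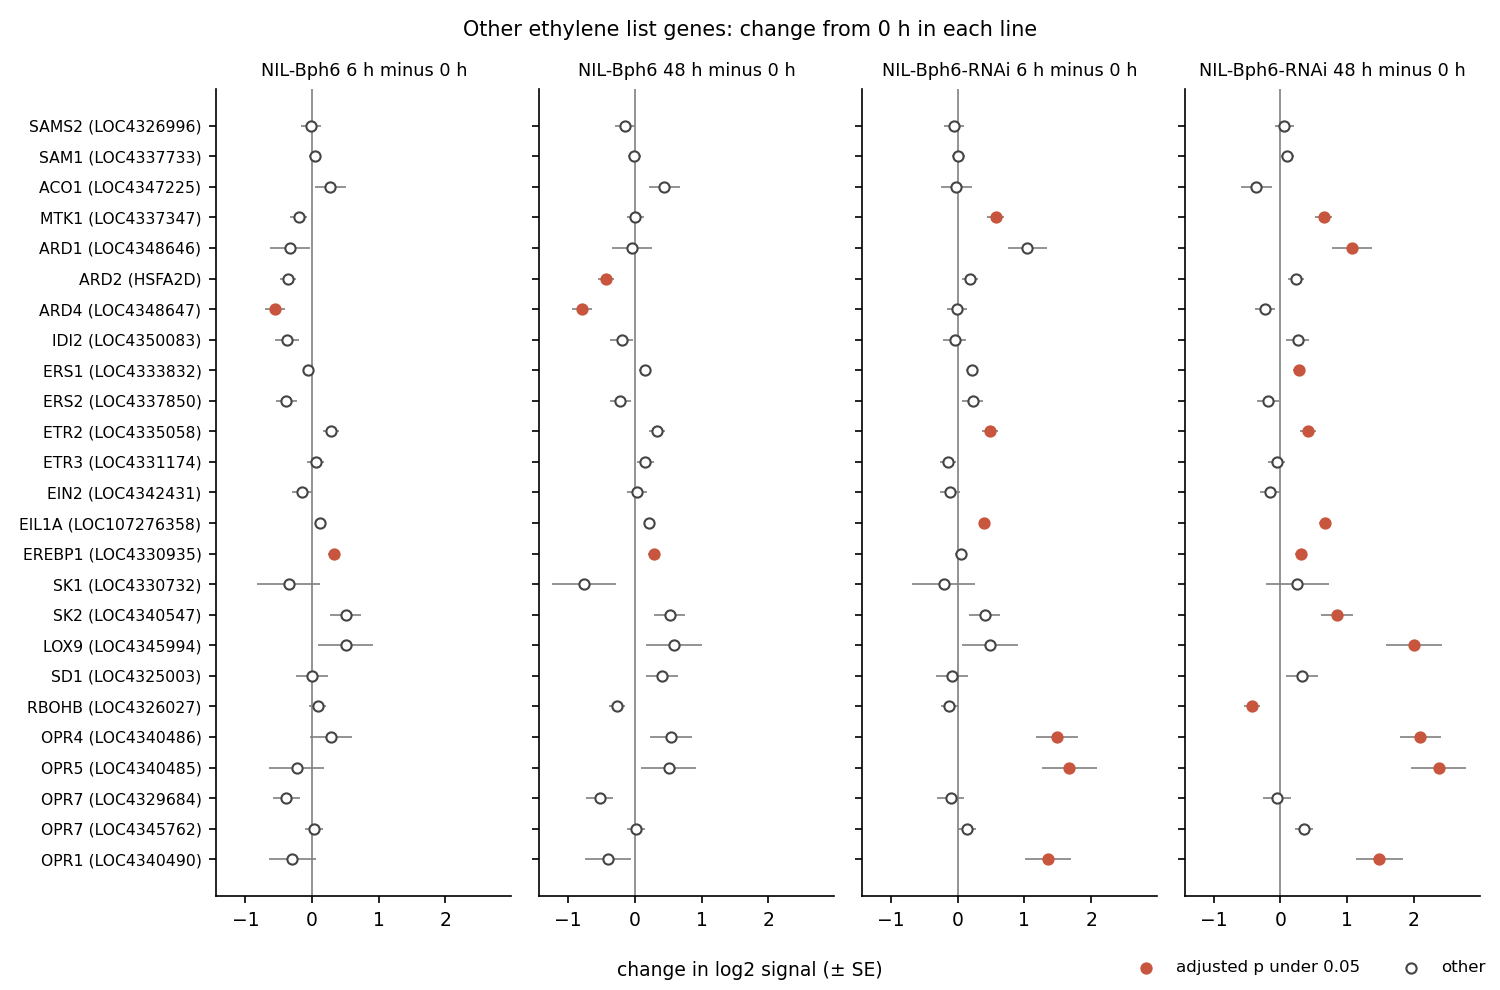
Change in log2 signal from 0 h (± SE) of the 25 other genes of the ethylene list in each line at 6 h and 48 h; filled points passed the test. In NIL-Bph6-RNAi 6 genes passed at 6 h and 12 at 48 h, against 2 and 3 in NIL-Bph6; the shares called over all probe sets were 5.3% and 33.3% against 5.12% and 15.7%.

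Of the 8 tested genes listed as EIL targets, 3 rose at 6 h in NIL-Bph6-RNAi, and 4 rose and 1 fell at 48 h. Of all probe sets, 3.7% rose and 5.3% were called at 6 h, and 16.7% rose and 33.3% were called at 48 h. OPR4, OPR5 and OPR1 carry names of 12-oxophytodienoate reductases, enzymes of the kind that acts in jasmonate synthesis, and in the gene table they lie in 1 stretch of neighbouring genes of that family, so signal may be shared between them, which was not tested. In NIL-Bph6-RNAi the signals of OPR4 (LOC4340486) were 9.17, 8.68 and 8.73 at 0 h, 10.26, 10.14 and 10.65 at 6 h and 11.03, 10.63 and 11.20 at 48 h, with no overlap of 0 h with the later times. Of all probe sets, 14.9% had every 6 h array and 23.4% every 48 h array above every 0 h array. OPR4 rose by 1.49 ± 0.31 at 6 h (SE, limma adjusted p = 0.0107) and 2.1 at 48 h (0.000105). OPR5 (LOC4340485) rose by 1.67 ± 0.41 at 6 h (0.0277) and 2.37 at 48 h (0.000393), and OPR1 (LOC4340490) by 1.35 ± 0.35 (0.0333) and 1.48 (0.00355). The list also holds a pair of genes under the symbol OPR7, neither called in NIL-Bph6-RNAi: LOC4345762, also named OPR3, differed by 0.14 at 6 h and 0.35 at 48 h (adjusted p = 0.613 and 0.0550), and LOC4329684 by -0.11 and -0.05 (0.830 and 0.879). All 3 rises of OPR4, OPR5 and OPR1 at 48 h were kept under the 15 alternatives. The 6 h calls ended without replicate 2 at 0 h, at 0.0573 for OPR4, 0.127 for OPR5 and 0.168 for OPR1, and under 1, 5 and 6 further alternatives. In NIL-Bph6 none of the 3 was called at 6 h or 48 h, with changes of 0.28 and 0.54 for OPR4, and the difference of the 48 h responses was called for OPR4 and OPR1 and not for OPR5 (-1.87 ± 0.59, adjusted p = 0.0501).

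LOX9, a lipoxygenase gene reported as an EIL target in rice, rose later. In NIL-Bph6-RNAi its signals were 9.43, 8.84 and 8.74 at 0 h, 9.64, 9.28 and 9.54 at 6 h and 11.53, 10.47 and 11.02 at 48 h. In that line 23.4% of all probe sets had every 48 h array above every 0 h array. For LOX9 the arrays of 48 h lay above all others of that line, whereas those of 0 h and 6 h overlapped. Its rise at 48 h was 2.0 ± 0.42 (SE, limma adjusted p = 0.00155) and was kept under all 15 alternatives, and the step from 6 h to 48 h, 1.52 (0.0352, where 8.3% of all probe sets were called), ended under 6, with adjusted p up to 0.121 without replicate 2 at 6 h. Its 48 h responses differed between the lines by -1.42 ± 0.59 (adjusted p = 0.134). RBOHB, an oxidase gene of the oxidative burst, was the gene of the list that fell in NIL-Bph6-RNAi at 48 h, by 0.43 (0.0129, and 0.0813 without replicate 3 at 48 h). In NIL-Bph6, replicate 2 was the lowest array at 6 h and the highest at 48 h for OPR4, OPR5, OPR1 and LOX9, as it was for ACS2 and EIL1.

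**Figure D5:**
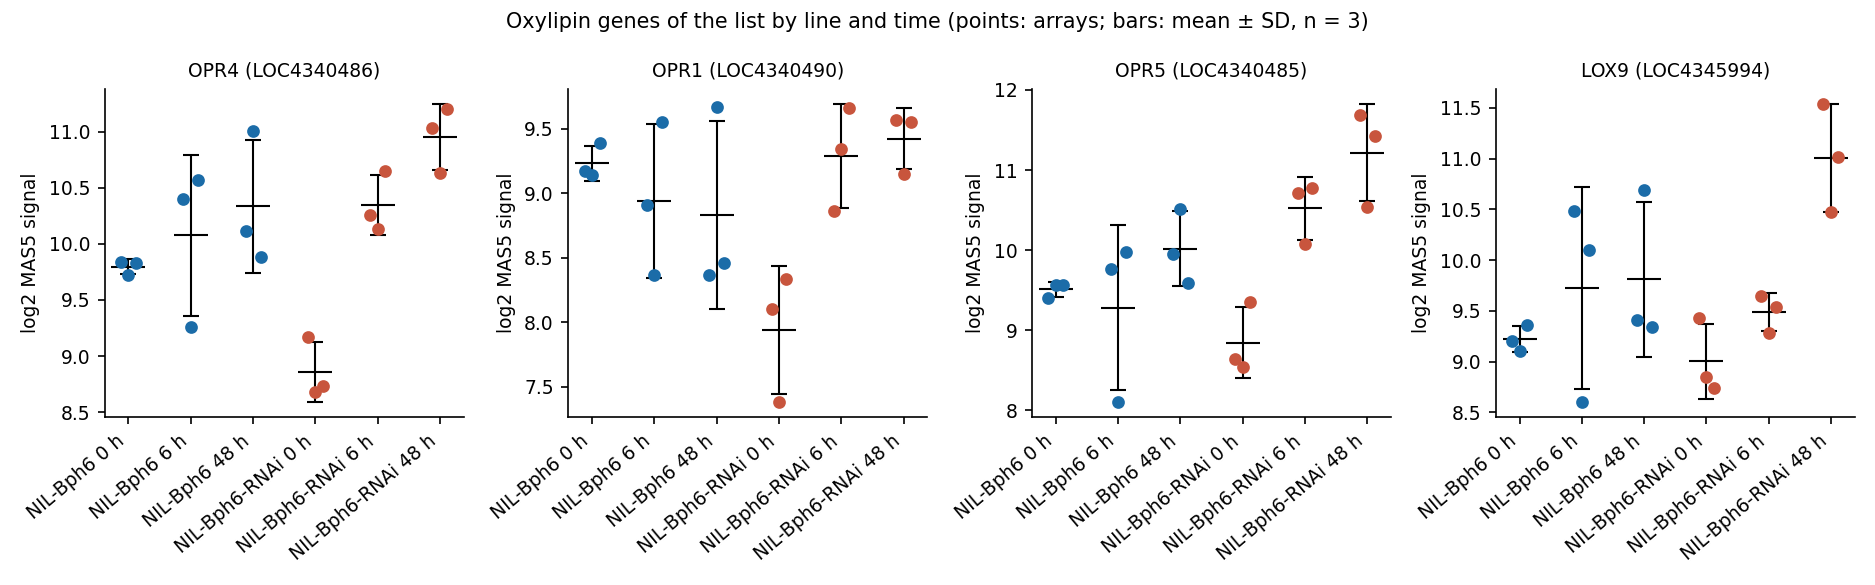
Log2 MAS5 signal by line and time of OPR4, OPR1, OPR5 and LOX9; points are arrays and bars the mean ± SD of 3 arrays, with a scale for each panel. In every panel NIL-Bph6-RNAi at 0 h has the lowest mean, at 8.86, 7.94, 8.85 and 9.01. For LOX9 the mean of NIL-Bph6 at 0 h is close to it, at 9.23. In NIL-Bph6 the arrays spread more at 6 h and 48 h than at 0 h.

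Between the lines, 1 of the 25 list genes, EIL1A, was called at 0 h, where 1.41% of all probe sets were. At 6 h limma called 0, and 6 had an unadjusted p under 0.05, where 0.862% of all probe sets were called. For the difference between the lines' 6 h responses limma also called 0, with 11 at an unadjusted p under 0.05, and only 0.00611% of all probe sets were called. For the 48 h responses 5 were called, all lower in NIL-Bph6, where 4.09% of all probe sets were lower and 11.2% were called. From 0 h to 48 h the means of all 5 rose in NIL-Bph6-RNAi. In NIL-Bph6 those of EIL1A and OPR4 rose less, that of MTK1 was nearly level, and those of ARD2 and OPR1 fell.

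Among 2827 named probe sets, the genes whose signal was most like that of ACS2 over the 18 arrays were LAC19, a laccase gene (Pearson r = 0.887), OPR1, listed there as opda (0.882), the ABC transporter gene ABCG37 (0.876), ASA2, an anthranilate synthase gene of tryptophan synthesis (0.874), and CPS4, a diterpene synthase gene of momilactone synthesis (0.862). With group means taken away, r was 0.762, 0.807, 0.778, 0.801 and 0.746. LAC19 had means of 4.90 in NIL-Bph6-RNAi at 0 h, 8.18 in the same line at 6 h and 7.77 in NIL-Bph6 at 0 h, and CPS4 had 6.49, 8.53 and 8.90. Both were picked for their likeness to ACS2, so a low mean in NIL-Bph6-RNAi at 0 h follows from that choice.

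Most like EIL1 were a cystatin gene, for an inhibitor of cysteine proteases (LOC4327535, r = 0.918), ART1, a zinc finger factor known from aluminium tolerance (0.913), SCAMP4, for a secretory carrier membrane protein (0.895), the germin-like gene GLP2 (0.890) and LOGL9, of a family of cytokinin-activating enzymes (0.889). With group means taken away, r was 0.893, 0.908, 0.857, 0.752 and 0.888. ART1 had means of 9.74 in NIL-Bph6-RNAi at 0 h, 10.74 at 6 h and 10.40 in NIL-Bph6 at 0 h, and LOGL9 had 10.02, 11.15 and 10.69. No gene was among the 5 most alike for both ACS2 and EIL1. All of these correlations describe arrays that share RNA and array quality, and were given no test.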

How the data were processed

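RNA of rice leaf sheath was measured on 18 arrays, 3 per group. The deposited values are log2 MAS5 signals. Per the submitters' processing notes the tool was MAS5, with no version, and log base and scaling were read from the values: the trimmed mean of the linear signals was 500.067 to 500.079 on every array. No label or header gives other steps by the authors. Array medians were 5.67 to 6.01, and precision is limited by the 3 arrays a group.

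The 123 control probe sets were left out, and 32732 of 57258 passed a filter on dim signals, above the overall median of 5.78 on 3 arrays or more. The platform table assigned 22436 probe sets to 1 gene and 95 to several, and left 34850 unnamed; symbols and gene order came from a RefSeq gene table, assembly ASM3414082v1. In R 4.3.3, limma 3.58.1 fitted group means over all 18 arrays with an intensity trend, for 11 comparisons, and calls were made where the p adjusted over the 32732 by Benjamini-Hochberg was under 0.05. All differences are of log2 signals, with the line or time named first minus the other. Apart from reading tissue markers and choosing or naming the brighter probe set of a gene, levels were not compared between probe sets.

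ACS2, EIL1 and the ethylene list were chosen with earlier results of these data known. The list was matched by symbol or synonym, and the matched genes were not trimmed, with the brightest kept probe set per gene. Many of its symbols, such as ETR1, EIL2 and ERF1, matched no gene in the gene table. Genes planned to be added by their description were not added. Genes named were ACS2 and EIL1, every list gene called and the 5 most correlated named genes of each. Alternatives covered quantile normalization, median centring, an offset of 9.66 before the logarithm, no or a stricter filter, no trend, a replicate block, an RNA integrity covariate, the compared groups alone and leaving out each array. Those for list genes and for shared probe sets were added after seeing the data. The method was tested on simulated data. Sequences were not analysed here. Replicate numbers did not pair the arrays, with correlations of same-numbered deviations from -0.252 to 0.0965 over all comparisons of a pair of groups. Lists and figures used Python 3.11.15 with pandas 2.3.3, numpy 2.4.6 and matplotlib 3.10.9.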

Additional observations from a re-analysis of the deposited data

Results flagged for a closer look

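The 48 h responses of 5 of the 25 other genes of the ethylene list differed between the lines by the limma test of that difference, NIL-Bph6 minus NIL-Bph6-RNAi on the log2 scale. Of all probe sets, 11.2% were called in this comparison and 4.09% were lower. EIL1A differed by -0.449 ± 0.12 (SE, adjusted p = 0.0232), MTK1 by -0.644 ± 0.18 (0.0315), ARD2 by -0.665 ± 0.17 (0.0191), OPR4 by -1.56 ± 0.44 (0.0320) and OPR1 by -1.89 ± 0.49 (0.0221). Of 21 alternatives, 9 ended the call for EIL1A, 11 for MTK1, 3 for ARD2, 10 for OPR4 and 6 for OPR1. Leaving out replicate 2 of NIL-Bph6-RNAi at 0 h ended all 5, at adjusted p of 0.0765, 0.0876, 0.0617, 0.0871 and 0.0708. All 5 differences rest on that group, in which ACS2 and EIL1 were also lowest. With groups of 3 arrays no array was tested as standing apart from its group.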

How the results depend on the processing

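None of the 8 tested differences of ACS2 and EIL1 passed the threshold in any of 116 alternatives, 16 of which turned the sign of a value near 0. ACS2 at 6 h in NIL-Bph6 ranged from -0.30 to 0.35, and the line difference of EIL1 at 48 h from -0.91 to -0.48 (adjusted p 0.106 to 0.461). ACS2 did not pass the stricter filter and has no value there. With the replicate number as a block, that line difference stayed at -0.68 (adjusted p = 0.152); the numbers did not pair the arrays. Of 31 calls of list genes, 7 held in all alternatives run. The counts moved by over 1.5 times as follows, and the cause was not tested.

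List genes called in NIL-Bph6 at 6 h, 2 in all, came to 1 with median centring, the replicate block or the compared groups alone, to 0 with no filter, no trend or the RNA integrity covariate, and to 0 to 3 with 1 array left out. At 48 h in NIL-Bph6, 3 became 1 with the compared groups alone and 1 to 4 with 1 array left out. In NIL-Bph6-RNAi at 6 h, 6 became 3 with median centring or the covariate and 0 to 5 with 1 array left out, 0 of them without replicate 2 at 0 h. Between lines, 1 at 0 h became 0 with the covariate and 0 to 2 with 1 array left out, and 1 at 48 h became 2 with quantile normalization, the stricter filter or the replicate block, 0 with the compared groups alone and 0 to 4 with 1 array left out.

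Over all probe sets, the 276 called between 48 h and 6 h in NIL-Bph6 became 26 with median centring, 75 with no filter, 563 with the stricter filter, 11 with no trend, 32 with the replicate block, 50 with the covariate, 20 with the compared groups alone, and 8 to 644 with 1 array left out. The 1736 in NIL-Bph6-RNAi at 6 h became 1086 with the covariate and 669 to 1498 with 1 array left out. Between lines, 460 at 0 h became 177 with the covariate, 289 with the compared groups alone and 225 to 850 with 1 array left out, and 4449 at 48 h became 2808 with the compared groups alone and 2585 to 3983 with 1 array left out. With 1 array left out, NIL-Bph6 gave 792 to 1412 at 6 h and 3350 to 5274 at 48 h, and the lines at 6 h gave 179 to 233.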
